A study of Mus musculus with 9 samples.

Results

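The cellular defence against peroxides and reactive chemicals was followed through 48 mouse genes of the glutathione, peroxiredoxin and thioredoxin systems, together with the transcription factor NRF2 (gene Nfe2l2) and its inhibitor Keap1. Genes entered by a rule on their symbols. They were the soluble glutathione transferases (Gst), the microsomal transferases (Mgst), the glutathione peroxidases (Gpx), the peroxiredoxins (Prdx), the thioredoxin reductases (Txnrd), and Txn1, Txn2, Srxn1, Nqo1, Hmox1, Gclc, Gclm, Gss, Gsr, Nfe2l2 and Keap1. The 48 were drawn from 18193 genes that have a probe set of their own on the array. Of these, 38 were bright enough to be tested, among 12715 genes in all.

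Total RNA was measured on 9 Affymetrix Mouse 430 2.0 arrays, 3 in each of 3 groups. The sensitive cells were BC3H1, a mouse brain tumour line with muscle-like properties, held for 24 h either in the solvent DMSO (called DMSO below) or in 100 nM rapamycin (RAP), an inhibitor of the kinase complex mTORC1. The third group (RES) was the rapamycin-resistant line RR1, grown out of BC3H1 over 6 months in 1 uM rapamycin and still kept in that dose. Only 1 resistant line was used, so its identity, its culture history and the drug cannot be told apart when RES is set against DMSO. RES and RAP also differ in dose and in exposure time. Separate cultures are not stated for the arrays of a group, and the p-values cover only the spread among these arrays, possibly a technical one.

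Glutathione is a small thiol built from glutamate, cysteine and glycine. Glutamate-cysteine ligase (Gclc, the catalytic subunit, and Gclm, the modifier) makes the rate-limiting step and glutathione synthetase (Gss) the last. Glutathione peroxidases use it to reduce peroxides, glutathione transferases join it to reactive compounds, and glutathione reductase (Gsr) regenerates it with NADPH. Peroxiredoxins do similar work with electrons from thioredoxin, which thioredoxin reductase recharges. KEAP1 holds NRF2 for degradation, and oxidants or electrophiles release it. NRF2, paired with a small MAF protein, then binds the antioxidant response element at genes such as Nqo1, Hmox1, Srxn1, Txnrd1, Gclc and Gclm.

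The core letters of that element, TGACNNNGC, were looked for on both strands from 250 bases before to 50 after each start site in the RefSeq promoter table (build GRCm38.p6). They occurred in a promoter of 8 of the 43 members in that table (18.6%), against 14.0% of all 27025 genes there. A longer form, with the letter A added at the end of the core, occurred in 2 of the 43 members, Gsta3 and Txnrd1, and in 3.45% of all genes. A match is a run of letters and not a measured binding site. Nqo1, Hmox1 and Gclc, given above as genes that NRF2 binds, were not among the 8 holders. Of all 38 tested members, with or without the core, 30 were called in at least 1 comparison. The like share was not counted over all genes, so a trait of the members cannot be read from it. In the single comparisons 35.6% (RAP against DMSO), 51.8% (RES against DMSO) and 56.5% (RES against RAP) of all genes were called. The 6 tested members that hold the core and were called in a comparison are shown because this sequence is the one NRF2 recognises. Each is read 5′ to 3′ on the strand that holds the element, with the core in capitals.

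Gclm: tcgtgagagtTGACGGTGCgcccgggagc

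Txnrd1: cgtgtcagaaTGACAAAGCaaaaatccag

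Srxn1: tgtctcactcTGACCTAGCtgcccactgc

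Mgst1: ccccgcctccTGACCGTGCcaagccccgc

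Gstm5: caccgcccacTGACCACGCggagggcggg

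Nfe2l2: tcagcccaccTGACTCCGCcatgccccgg

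These windows lie at chr3:122245413-122245441 for Gclm, chr10:82859104-82859132 for Txnrd1, chr2:152105542-152105570 for Srxn1, chr6:138140461-138140489 for Mgst1, chr3:107895802-107895830 for Gstm5 and chr2:75704885-75704913 for Nfe2l2. The element of Gclm, Txnrd1, Srxn1 and Mgst1 is on the strand opposite to the gene, and that of Gstm5 and Nfe2l2 is on the gene's own strand. The Srxn1 match lies after the start site and the other 5 lie before it. The remaining holders of the core were Gsta3, which was too dim to test, and Gstm7, which was called in no comparison.

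Values are the authors' linear signals. Changes are differences of log2(signal + 16) from 1 limma fit over all 9 arrays, given with their standard error. Genes with an adjusted p (Benjamini-Hochberg) under 0.05 were called. Adding 16 understates the change of dim genes. Median signals ran from 33.3 to 44.2 on 8 arrays, while the third DMSO array stood apart at 66.0. The 3-prime to 5-prime log2 difference of Actb, a measure of RNA quality, was 0.33 ± 0.02 (SD, n = 3) in RES, 0.19 ± 0.04 in RAP and 0.17 ± 0.0078 in DMSO (exact permutation p = 0.1 for RES against DMSO, the smallest possible). That of Gapdh was -0.29 ± 0.04 in RES, -0.36 ± 0.04 in RAP and -0.31 ± 0.02 in DMSO (exact permutation p = 0.4 for RES against DMSO and 0.1 for RAP against DMSO). Summed signals of 7 smooth muscle markers, 6 of them above the brightness filter, were 25930 to 34830 in DMSO, 34160 to 34550 in RAP and 8369 to 10300 in RES. Of 6 skeletal muscle markers, 5 above the filter, the sums were 905.8 to 981.7, 628.7 to 766.1 and 372.9 to 438.9. Within that list Chrna1 and Acta1 had lower means in RES than in DMSO (15.2 against 528.9, and 71.1 against 317.4), while Myog (98.9 against 6.50), Ckm (77.4 against 26.5) and Tnnt3 (131.3 against 36.7) had higher ones. Of 4 glial markers, 3 above the filter, they were 91.5 to 329.2, 146.1 to 172.9 and 48.3 to 75.4. Above the filter were 3 of 4 neuron markers, 3 of 4 leukocyte and macrophage markers, 1 of 3 endothelial markers and 2 of 4 epithelial and hepatocyte markers. The brightest of each list in DMSO were Tubb3 (mean 181.5), Csf1r (154.7), Kdr (42.5) and Epcam (138.4). Myh11, Myod1, Snap25, Ptprc, Pecam1, Cdh5, Krt18 and Alb were under the filter. The part of RNA quality or of these marker genes in the results on RES was not tested.

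In sensitive cells, 24 h of rapamycin lowered the genes that make and recycle glutathione and part of the thioredoxin system, and raised several transferases. All 4 genes of glutathione synthesis and recycling fell, as did Txn1, Txn2 and Txnrd1, while all 3 microsomal transferases rose. Of the 38 tested members, 10 rose and 11 fell (55.3%), beside 35.6% of all genes tested (20.4% higher and 15.2% lower). Their median log2 change was 0.0069, against 0.03 for all genes. Gstt1 alone rose by at least 1 on the log2 scale, and no member fell that far. Over all genes, 2.08% rose and 3.96% fell by that much.

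The resistant line, set against DMSO cells, had low microsomal transferases, low Gpx8 and Gstm2, and high Gsta4, Gclc and Gclm. Of the 38 members 12 were higher and 13 lower (65.8%), beside 51.8% of all genes tested (25.9% higher and 25.8% lower). The median log2 change was 0.01 in the members and -0.07 in all genes. By at least 1 on the log2 scale, 2 members were higher (Gsta4 and Txnrd3) and 6 lower (Mgst1, Mgst2, Mgst3, Gpx8, Gstm2 and Hmox1), where 5.45% of all genes were higher and 9.99% lower by that much.

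With both groups in rapamycin, RES against RAP, 14 members were higher and 11 lower, again 65.8%, beside 56.5% of all genes (26.4% higher and 30.1% lower). The median was 0.0013 in the members and -0.08 in all genes. By at least 1 on the log2 scale 5 members were higher (Gsta4, Gclc, Gclm, Txnrd3 and Gsto1) and 7 lower (the 3 microsomal transferases, Gpx7, Gpx8, Gstm2 and Gstt1), with 10.3% and 13.7% over all genes. Centring the arrays on their 75th percentile moved the median of all genes in this comparison from -0.08 to 0.05, and the members' counts to 14 and 10. Over all genes it turned the balance there from 3353 higher and 3833 lower to 3892 and 3240, and in RES against DMSO from 3299 and 3282 to 3776 and 2754. In RAP against DMSO it left 7 members higher and 11 lower. The comparisons share arrays, so their counts are not independent of each other. Without the third DMSO array 37 members were tested, of which 10 rose and 12 fell in RAP, 12 were higher and 14 lower in RES against DMSO, and 14 were higher and 13 lower in RES against RAP.

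**Figure D1:**
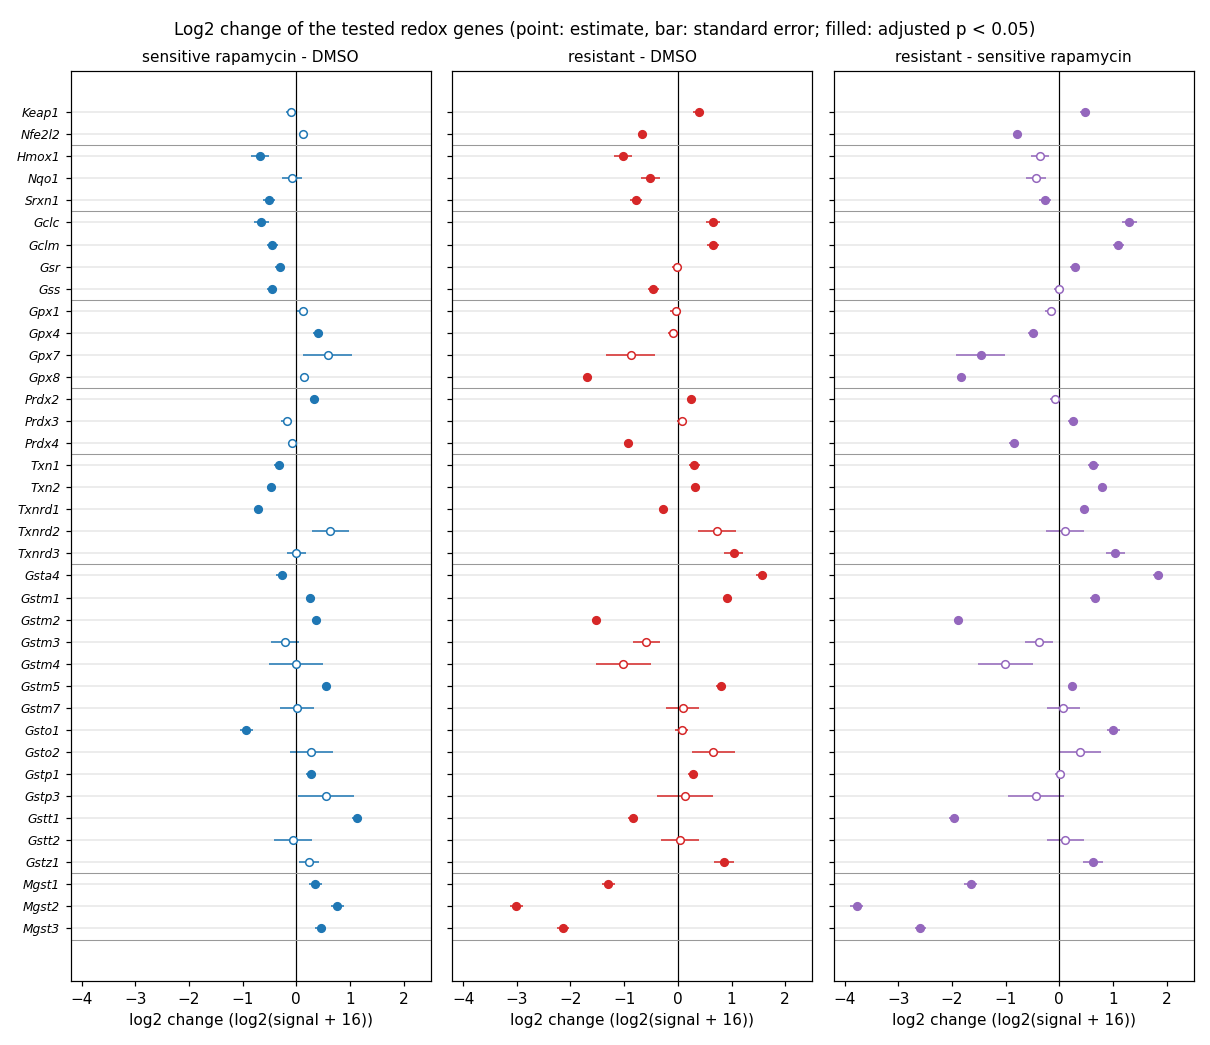
Log2 change (x axis, on log2(signal + 16)) of each of the 38 tested genes (y axis, grouped by role) in the 3 comparisons, with bars for the standard error and filled points for adjusted p under 0.05. The microsomal transferases at the foot lie right of 0 in RAP against DMSO and at -1.29 to -3.01 in RES against DMSO.

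NRF2 mRNA was lower in the resistant line, KEAP1 mRNA was higher, and neither passed the test after 24 h of rapamycin. Nfe2l2 signals were 1578, 1481 and 1471 in DMSO, 1705, 1568 and 1667 in RAP, and 953, 940.4 and 928 in RES. All 3 resistant arrays lay below the other 6, and DMSO and RAP overlapped. The log2 change was -0.67 ± 0.07 (adjusted p = 3.15e-07) in RES against DMSO, -0.80 ± 0.07 (adjusted p = 2.06e-08) in RES against RAP, and 0.12 ± 0.07 (adjusted p = 0.194) in RAP against DMSO.

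Keap1, the adaptor that hands NRF2 to a ubiquitin ligase, read 386, 400.0 and 421 in DMSO, 355, 384 and 390.5 in RAP, and 547, 550.1 and 498 in RES. The resistant arrays lay above all others, and DMSO and RAP overlapped. The change was 0.39 ± 0.10 (adjusted p = 0.00243) in RES against DMSO, 0.48 ± 0.10 (adjusted p = 0.000297) in RES against RAP and -0.09 ± 0.10 (adjusted p = 0.495) in RAP against DMSO. Averaging of its probe sets gave 0.27, adjusted p = 0.0376 in RES against RAP. The other Keap1 probe set gave 0.0037 in RES against DMSO (adjusted p = 0.988), and the mean of both probe sets lost the call (0.20, adjusted p = 0.132).

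The NRF2-linked enzymes did not move one way in RES against DMSO. Hmox1, Srxn1, Nqo1 and Txnrd1 were lower and Gclc and Gclm higher. Hmox1, the inducible haem oxygenase, had signals of 498, 432 and 367 in DMSO, 314, 226 and 257 in RAP, and 258, 162 and 199 in RES. Every DMSO array was above every array of cells in rapamycin, while RAP and RES overlapped. Hmox1 changed by -0.67 ± 0.17 in RAP (adjusted p = 0.00379) and by -1.03 ± 0.17 in RES (adjusted p = 4.79e-05). RES against RAP gave -0.35 ± 0.17 (adjusted p = 0.0798), which passed without the second RAP array (adjusted p = 0.0459) or the first RES array (adjusted p = 0.0162) and with a replicate block (adjusted p = 0.0327).

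Srxn1 encodes sulfiredoxin, which repairs over-oxidised peroxiredoxins. It averaged 535 ± 31.9 in DMSO, 370.4 ± 26.7 in RAP and 306 ± 33.0 in RES (SD, n = 3). It fell in RAP (-0.51 ± 0.11, adjusted p = 0.00121) and was lower in RES than in DMSO (-0.78 ± 0.11, adjusted p = 1.02e-05). In each of these comparisons 3 of its 4 probe sets were called lower and none higher. The difference between RES and RAP was -0.27 ± 0.11 (adjusted p = 0.0459). It lost its call without any of 6 arrays, the first or the second of DMSO, the first or the second of RAP, the second or the third of RES (adjusted p = 0.0529 to 0.227). Centring on the 75th percentile (-0.13, adjusted p = 0.347), quantile normalization (-0.18, adjusted p = 0.175), averaging of its probe sets (-0.16, adjusted p = 0.386), dropping the filter (adjusted p = 0.0591) and eBayes without trend (adjusted p = 0.0598) also ended it.

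Nqo1, a quinone reductase, averaged 159.9 ± 29.1 in DMSO, 149 ± 13.4 in RAP and 107 ± 10.5 in RES. Its change was -0.08 ± 0.18 in RAP (adjusted p = 0.777) and -0.51 ± 0.18 in RES against DMSO (adjusted p = 0.0261). The second call was lost without the second DMSO, the second RES or the third RES array (adjusted p = 0.0513 to 0.122). It was also lost on centring to the 75th percentile (-0.42, adjusted p = 0.0671), under quantile normalization (-0.34, adjusted p = 0.141) and without the filter (adjusted p = 0.0558). RES against RAP gave -0.43 ± 0.18 (adjusted p = 0.0535) and passed when any single DMSO array was left out (adjusted p = 0.0344 to 0.0496). It also passed with eBayes without trend (adjusted p = 0.0255) or a fit on the 6 arrays compared (adjusted p = 0.0288). The run that averaged probe sets gave adjusted p = 0.0293, though Nqo1 has only 1 and its change stayed the same.

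Both subunits of the glutathione-making ligase were lower in RAP and higher in RES than in DMSO. Gclc signals were 325, 369 and 378 in DMSO, 227, 259.7 and 184 in RAP, and 486, 666 and 574 in RES. The 3 groups did not overlap. Gclc changed by -0.65 ± 0.14 in RAP (adjusted p = 0.0011), by 0.65 ± 0.14 in RES against DMSO (adjusted p = 0.00058) and by 1.31 ± 0.14 in RES against RAP (adjusted p = 1.93e-07). Its second probe set carried the same 3 calls.

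Gclm, whose promoter window is the first shown above, read 689, 688 and 525 in DMSO, 402, 489 and 486 in RAP, and 988, 967 and 1043 in RES. Here too the groups did not overlap. The changes were -0.45 ± 0.11 (adjusted p = 0.00354), 0.65 ± 0.11 (adjusted p = 6.68e-05) and 1.10 ± 0.11 (adjusted p = 9.35e-08) in the same order. A dimmer Gclm probe set was called in none of them (-0.29, 0.02 and 0.31), and averaging both gave 0.33, adjusted p = 0.0217 in RES against DMSO and 0.70, adjusted p = 6.4e-05 against RAP.

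Gss, the last enzyme of the pathway, was lower in both groups of cells in rapamycin. It averaged 586 ± 46.6 in DMSO, 424 ± 40.1 in RAP and 422 ± 12.1 in RES. The changes from DMSO were -0.45 ± 0.10 (adjusted p = 0.00157) and -0.46 ± 0.10 (adjusted p = 0.000819), and RES against RAP gave -0.01 ± 0.10 (adjusted p = 0.973).

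Gsr, the reductase, fell in RAP from 693 ± 28.4 to 557 ± 50.4 (-0.31 ± 0.09, adjusted p = 0.0111), a call lost without the first RAP array (adjusted p = 0.0511). In RES it averaged 682 ± 37.3 (-0.02 ± 0.09 against DMSO, adjusted p = 0.851), but its other probe set was called higher (0.60, adjusted p = 8.75e-05), as was the mean of both (0.29, adjusted p = 0.00789). RES against RAP gave 0.29 ± 0.09 (adjusted p = 0.0104), which did not pass without the second RES array (adjusted p = 0.0504) and was 0.57, adjusted p = 2.27e-05 after averaging of its probe sets.

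**Figure D2:**
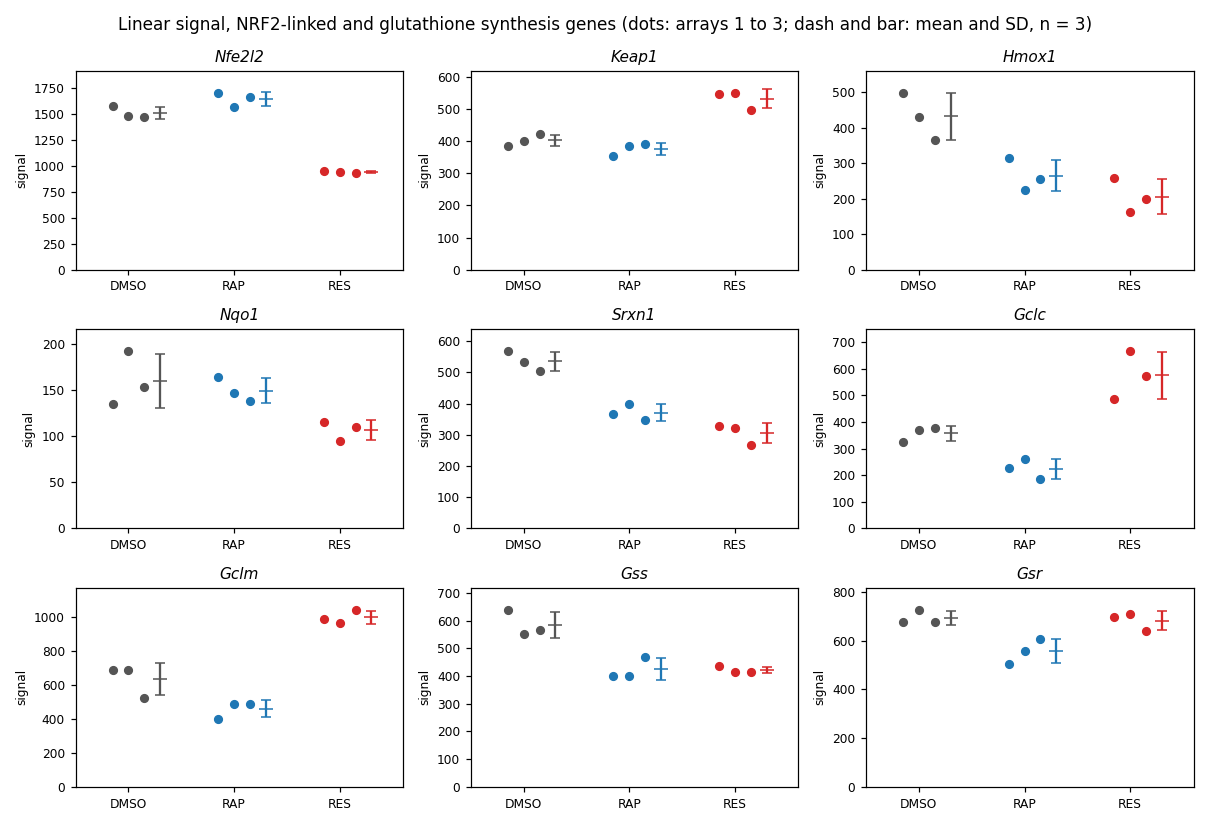
Linear signal (y axis, from 0) of Nfe2l2, Keap1, Hmox1, Nqo1, Srxn1, Gclc, Gclm, Gss and Gsr on each array, by group (x axis), with the mean and SD of 3 arrays. Gclc and Gclm are lowest in RAP and highest in RES, and the 3 RES arrays are the lowest for Nfe2l2.

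Of the 4 tested glutathione peroxidases, Gpx4 rose in RAP and Gpx8 was lower in RES than in DMSO. Gpx1, the abundant cytosolic enzyme, averaged 6876 ± 906 in DMSO, 7437 ± 591 in RAP and 6648 ± 342 in RES and passed in no comparison. Without the third DMSO array, RES against RAP passed (-0.16, adjusted p = 0.0426). Under quantile normalization Gpx1 was called lower in RES against DMSO (-0.22, adjusted p = 0.00279) and against RAP (-0.28, adjusted p = 0.000245).

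Gpx4 reduces lipid peroxides in membranes and so guards cells from ferroptosis. It rose in RAP from 6326 ± 854 to 8315 ± 639 (0.40 ± 0.10, adjusted p = 0.00398) and was lower in RES than in RAP (-0.49 ± 0.10, adjusted p = 0.00036). In RES it averaged 5919.7 ± 322, a change of -0.09 ± 0.10 from DMSO (adjusted p = 0.491). That passed without the third DMSO array (-0.20, adjusted p = 0.0249) and under quantile normalization (-0.27, adjusted p = 0.00237).

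Gpx8 is a membrane-bound peroxidase of the endoplasmic reticulum. Signals were 3184, 3295 and 3106 in DMSO, 3589, 3621 and 3367 in RAP, and 929, 903 and 1125 in RES. The resistant arrays lay far below the other 6. The changes were -1.69 ± 0.08 in RES against DMSO (adjusted p = 1.92e-11), -1.83 ± 0.08 in RES against RAP (adjusted p = 2.76e-12) and 0.14 ± 0.08 in RAP (adjusted p = 0.207).

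Gpx7, a relative of Gpx8 in the same compartment, was dim, with signals of 8.23, 45.2 and 33.7 in DMSO, 42.7, 54.8 and 44.1 in RAP, and 5.76, 14.4 and 2.13 in RES. The resistant mean was below the filter limit of 22.2, and DMSO overlapped both other groups. Gpx7 was lower in RES than in RAP (-1.46 ± 0.46, adjusted p = 0.0108, or -0.64, adjusted p = 0.014 with a pseudocount of 64), while RAP against DMSO gave 0.59 ± 0.46 (adjusted p = 0.357). RES against DMSO gave -0.87 ± 0.46 (adjusted p = 0.122) and passed without the first DMSO array (-1.27, adjusted p = 0.0281).

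Of the peroxiredoxins, Prdx4, the secretory-pathway member, was lower in the resistant line. It averaged 4494 ± 438 in DMSO, 4248 ± 275 in RAP and 2343 ± 49.8 in RES (-0.93 ± 0.08, adjusted p = 3.71e-08, against DMSO), and each of its 3 tested probe sets was called lower. In RAP it changed by -0.08 ± 0.08 (adjusted p = 0.505).

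Prdx2, a cytosolic peroxiredoxin, rose in RAP from 8426 ± 482 to 10629 ± 62.4 (0.34 ± 0.08, adjusted p = 0.0034). In RES it averaged 10032 ± 468 (0.25 ± 0.08, adjusted p = 0.0152), a call lost without the second or the third RES array (adjusted p = 0.067 to 0.0775) and under quantile normalization (0.10, adjusted p = 0.0755). Prdx3, the mitochondrial member, averaged 2016 ± 309 in DMSO, 1762 ± 104 in RAP and 2112 ± 109 in RES. Its change in RAP was -0.18 ± 0.10 (adjusted p = 0.163), and it passed without the third DMSO array (-0.31, adjusted p = 0.00305). RES was above RAP (0.26 ± 0.10, adjusted p = 0.0296), a call lost without the first RAP array or the first or the third RES array (adjusted p = 0.0743 to 0.115) and with eBayes without trend (adjusted p = 0.111). Centring on the 75th percentile gave 0.39, adjusted p = 0.00527.

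Both thioredoxins were lower in RAP and higher in RES than in DMSO. Txn1, the cytosolic one, averaged 12658 ± 1328 in DMSO, 10109 ± 962 in RAP and 15628 ± 821 in RES. Its fall in RAP (-0.32 ± 0.10, adjusted p = 0.0193) was lost without the first or the second DMSO array or the third RAP array (adjusted p = 0.0743 to 0.12), in a fit on the 6 arrays compared (adjusted p = 0.0527) and with eBayes without trend (adjusted p = 0.0608). Averaging of its probe sets gave -0.53, adjusted p = 0.00528 there. The call in RES against DMSO (0.31 ± 0.10, adjusted p = 0.017) was lost without the second or the third RES array (adjusted p = 0.0586 to 0.0786) and under quantile normalization (0.10, adjusted p = 0.0925). It turned in sign when its probe sets were averaged (-0.10, adjusted p = 0.562). RES against RAP gave 0.63 ± 0.10 (adjusted p = 3.41e-05).

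Txn2, mitochondrial thioredoxin, averaged 1176 ± 54.8 in DMSO, 848 ± 55.3 in RAP and 1481 ± 109.7 in RES. The changes were -0.47 ± 0.08 in RAP (adjusted p = 0.000188), 0.33 ± 0.08 in RES against DMSO (adjusted p = 0.00235) and 0.79 ± 0.08 in RES against RAP (adjusted p = 1.29e-07). Of its 3 probe sets, 1 was not called in RAP (-0.28, adjusted p = 0.124) or in RES against DMSO (0.24, adjusted p = 0.144). All 3 were called higher in RES against RAP.

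Among the reductases, Txnrd1, the cytosolic enzyme and a holder of the longer element, averaged 3327 ± 305 in DMSO, 2009 ± 57.9 in RAP and 2754 ± 7.18 in RES. It fell in RAP (-0.72 ± 0.07, adjusted p = 7.01e-07), with each of its 3 probe sets called lower. RES was lower than DMSO (-0.27 ± 0.07, adjusted p = 0.00591), a call lost on centring to the 75th percentile (-0.17, adjusted p = 0.13), and higher than RAP (0.45 ± 0.07, adjusted p = 4.36e-05).

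Txnrd3, a reductase best known from testis, read 99.4, 147 and 103 in DMSO, 129.9, 108 and 108 in RAP, and 243, 257 and 261 in RES. The resistant arrays were above all others, and each of its 3 probe sets was called higher in RES against either group. The change was 1.04 ± 0.18 against DMSO (adjusted p = 8.49e-05) and 1.04 ± 0.18 against RAP (adjusted p = 6.16e-05). Txnrd2, the mitochondrial reductase, was called on none of its 4 probe sets. Its brightest gave 0.64 ± 0.35 in RAP (adjusted p = 0.183) and 0.74 ± 0.35 in RES against DMSO (adjusted p = 0.0923), and both passed without the first DMSO array (adjusted p = 0.0382 and 0.0155).

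**Figure D3:**
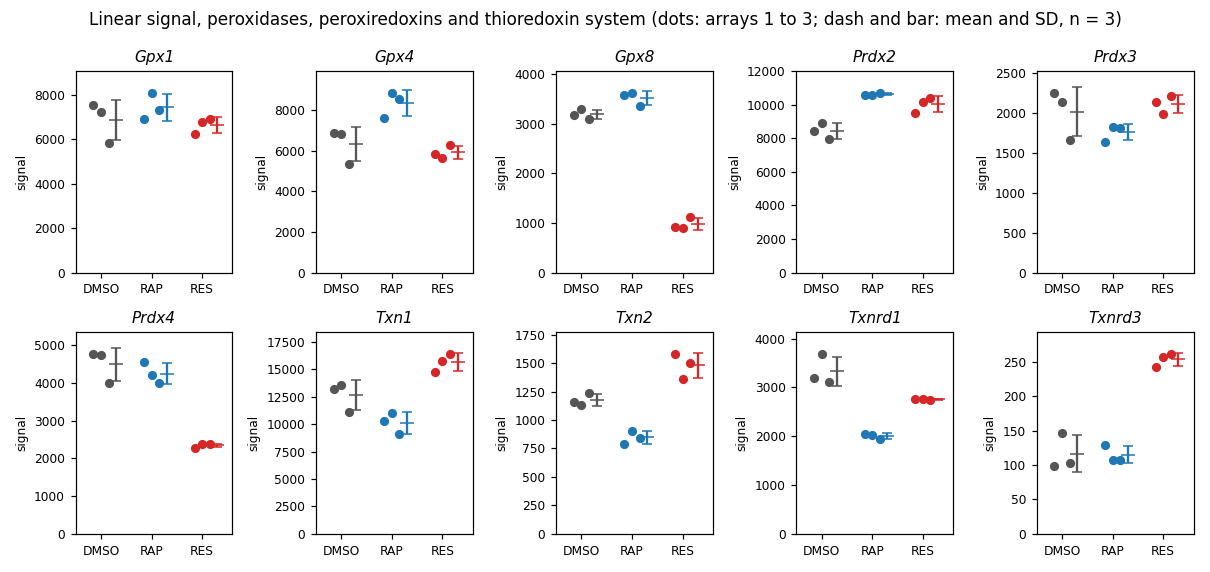
Linear signal (y axis, from 0) of Gpx1, Gpx4, Gpx8, Prdx2, Prdx3, Prdx4, Txn1, Txn2, Txnrd1 and Txnrd3 on each array by group (x axis), with the mean and SD of 3 arrays. Gpx8 and Prdx4 are lowest in RES, and Txnrd1 is lowest in RAP.

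The microsomal transferases are membrane proteins that conjugate glutathione and reduce lipid hydroperoxides. All 3 rose in RAP and were lower in RES, and no resistant array overlapped another group. Over all genes 20.4% rose in RAP, and 25.8% were lower in RES than in DMSO and 30.1% than in RAP. Overlap of arrays was not counted over all genes. Mgst2 signals were 589, 534 and 451 in DMSO, 915, 912 and 869 in RAP, and 50.3, 50.5 and 51.8 in RES. The 3 resistant arrays were close together. The changes were 0.77 ± 0.12 in RAP (adjusted p = 6.36e-05), -3.01 ± 0.12 in RES against DMSO (adjusted p = 1.29e-12) and -3.77 ± 0.12 in RES against RAP (adjusted p = 2.69e-14). In each of the comparisons with RES no tested member had a larger change.

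Mgst3 read 692, 652 and 776 in DMSO, 908, 1071 and 936 in RAP, and 159, 131 and 155 in RES. The 3 groups stood apart. Its changes were 0.45 ± 0.11 (adjusted p = 0.00282), -2.14 ± 0.11 (adjusted p = 2.54e-11) and -2.59 ± 0.11 (adjusted p = 8.76e-13) in the same order.

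Mgst1, an abundant enzyme of liver microsomes, read 316, 327 and 303 in DMSO, 416, 383 and 425 in RAP, and 112, 124 and 122 in RES. The groups did not overlap. It was lower in RES than in DMSO (-1.29 ± 0.12, adjusted p = 8.07e-08) and than in RAP (-1.65 ± 0.12, adjusted p = 1.79e-09). Its rise in RAP (0.36 ± 0.12, adjusted p = 0.0289) was lost without the first DMSO array or the first or the third RAP array (adjusted p = 0.0622 to 0.1) and on centring to the 75th percentile (0.32, adjusted p = 0.061). Each of the 3 genes rests on 1 probe set above the filter, and they lie apart, on chromosomes 6 (Mgst1), 3 (Mgst2) and 1 (Mgst3).

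The soluble transferases moved in both directions, also within a class. Gsta4, which conjugates the lipid peroxidation product hydroxynonenal, had signals of 842, 763 and 651 in DMSO, 544, 675 and 635 in RAP, and 2142, 2297 and 2281 in RES. The resistant arrays were above the other 6, and DMSO and RAP overlapped. Its changes were 1.56 ± 0.10 in RES against DMSO (adjusted p = 5.03e-10), 1.84 ± 0.10 in RES against RAP (adjusted p = 2.54e-11) and -0.27 ± 0.10 in RAP (adjusted p = 0.037). The call in RAP was lost without any of 6 arrays, the first or the second of DMSO, the first or the third of RAP, the second or the third of RES (adjusted p = 0.0506 to 0.174), in a fit on the 6 arrays compared (adjusted p = 0.0733) and with eBayes without trend (adjusted p = 0.123).

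The mu class genes Gstm5, Gstm7, Gstm6, Gstm3, Gstm2, Gstm1 and Gstm4 are neighbours on chromosome 3, in that order in the RefSeq gene table. Their transcripts are alike, so a probe set may catch more than 1 of them. Gstm2 signals were 2009, 1936 and 1874 in DMSO, 2341, 2581 and 2637 in RAP, and 674, 625 and 705 in RES. The groups did not overlap, and the changes were 0.37 ± 0.08 in RAP (adjusted p = 0.000791), -1.52 ± 0.08 in RES against DMSO (adjusted p = 2.5e-11) and -1.89 ± 0.08 in RES against RAP (adjusted p = 5.83e-13).

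Gstm5 was higher in both groups of cells in rapamycin. It averaged 1180.2 ± 80.7 in DMSO, 1745 ± 108 in RAP (0.56 ± 0.08, adjusted p = 1.66e-05) and 2058 ± 68.7 in RES (0.80 ± 0.08, adjusted p = 1.08e-07). RES and RAP differed by 0.24 ± 0.08 (adjusted p = 0.0126), which was lost without the first RAP or the first RES array (adjusted p = 0.0563 to 0.0574) and under quantile normalization (0.17, adjusted p = 0.0741), and was 0.37, adjusted p = 0.000725 on centring to the 75th percentile.

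Gstm1, next to Gstm2 on the chromosome, was higher in RES. It averaged 977 ± 124 in DMSO, 1169.5 ± 9.94 in RAP and 1855 ± 51.4 in RES (0.92 ± 0.09, adjusted p = 7.17e-08, against DMSO). The name of its brightest probe set has the suffix that marks probes shared with other transcripts. A probe set without that suffix gave 1.00 (adjusted p = 1.18e-08), and the other 2, both dimmer, were not called. The change in RAP was 0.60 (adjusted p = 1.27e-05) on the probe set without that suffix. On the brightest it was 0.26 ± 0.09 (adjusted p = 0.0222). The latter call was lost without the second DMSO array or the second or the third RAP array (adjusted p = 0.0539 to 0.14). Centring to the 75th percentile (0.23, adjusted p = 0.0531) and eBayes without trend (adjusted p = 0.0841) also ended it. Averaging of its probe sets gave 0.58, adjusted p = 0.000131 in RES against DMSO and 0.27, adjusted p = 0.0258 against RAP.

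Gstm3, Gstm4 and Gstm7 were dim and called in no comparison. In RES against DMSO they gave -0.59 ± 0.26 (adjusted p = 0.0658), -1.02 ± 0.51 (adjusted p = 0.106) and 0.09 ± 0.31 (adjusted p = 0.835). Gstm3 passed there without the first DMSO array or the second RES array (adjusted p = 0.0139 to 0.0496) and with eBayes without trend (adjusted p = 0.049). The run that averaged probe sets gave it adjusted p = 0.0467, though it has only 1 above the filter and its change stayed the same. Gstm4 passed without the second DMSO array (-1.50, adjusted p = 0.0197).

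Gstt1, of the theta class, was the member with the largest rise in RAP. Its signals were 746, 582 and 689.9 in DMSO, 1392, 1586 and 1463 in RAP, and 377, 377 and 348 in RES. The 3 groups stood apart, and the changes were 1.12 ± 0.10 in RAP (adjusted p = 5.99e-08), -0.84 ± 0.10 in RES against DMSO (adjusted p = 9.29e-07) and -1.96 ± 0.10 in RES against RAP (adjusted p = 7.33e-12). Gstt2, which lies in a row of 4 genes with Gstt3, Gstt1 and Gstt4 on chromosome 10, was dim. It gave -0.07 ± 0.35 in RAP (adjusted p = 0.909) and 0.05 ± 0.35 in RES against DMSO (adjusted p = 0.926).

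Gsto1, an omega class enzyme that reduces dehydroascorbate, had on its brightest probe set the largest fall of the tested members in RAP. It read 3537, 3532 and 3244 in DMSO, 1692, 1551 and 2194 in RAP, and 3044, 3722 and 4159 in RES. The RAP arrays were below all others, while DMSO and RES overlapped. Gsto1 changed by -0.93 ± 0.12 in RAP (adjusted p = 7.38e-06), by 0.07 ± 0.12 in RES against DMSO (adjusted p = 0.643) and by 1.00 ± 0.12 in RES against RAP (adjusted p = 8.55e-07), and its second probe set carried the same calls. Quantile normalization gave -0.60, adjusted p = 8.7e-07 in RAP and 0.63, adjusted p = 1.57e-07 in RES against RAP. The brightest Gsto1 probe set has the suffix that marks probes shared with other transcripts. The second probe set lacks it, and its changes were smaller, -0.59 in RAP and 0.73 in RES against RAP. The size of the fall in RAP, and its rank, therefore depend on the probe set used.

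Gstz1, an enzyme of tyrosine breakdown, averaged 207 ± 58.3 in DMSO, 246 ± 65.3 in RAP and 381 ± 29.0 in RES. It was higher in RES than in DMSO (0.86 ± 0.19, adjusted p = 0.000824) and than in RAP (0.63 ± 0.19, adjusted p = 0.00804), the latter not without the first RAP array (adjusted p = 0.0612). Gstp1, the pi class enzyme common in tumour cells, averaged 6875 ± 758 in DMSO, 8292 ± 387 in RAP and 8333 ± 226 in RES. The change in RAP (0.27 ± 0.09, adjusted p = 0.0208) was lost without the first DMSO array or the first or the second RAP array (adjusted p = 0.0552 to 0.0852), on centring to the 75th percentile (0.24, adjusted p = 0.111), in a fit on the 6 arrays compared (adjusted p = 0.0597) and with eBayes without trend (adjusted p = 0.0629). The change in RES against DMSO (0.28 ± 0.09, adjusted p = 0.0118) was lost without the second RES array (adjusted p = 0.0509) and under quantile normalization (0.09, adjusted p = 0.155). Gsto2 and Gstp3 were dim and called in no comparison, with 0.66 ± 0.40 and 0.13 ± 0.52 in RES against DMSO (adjusted p = 0.178 and 0.857).

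**Figure D4:**
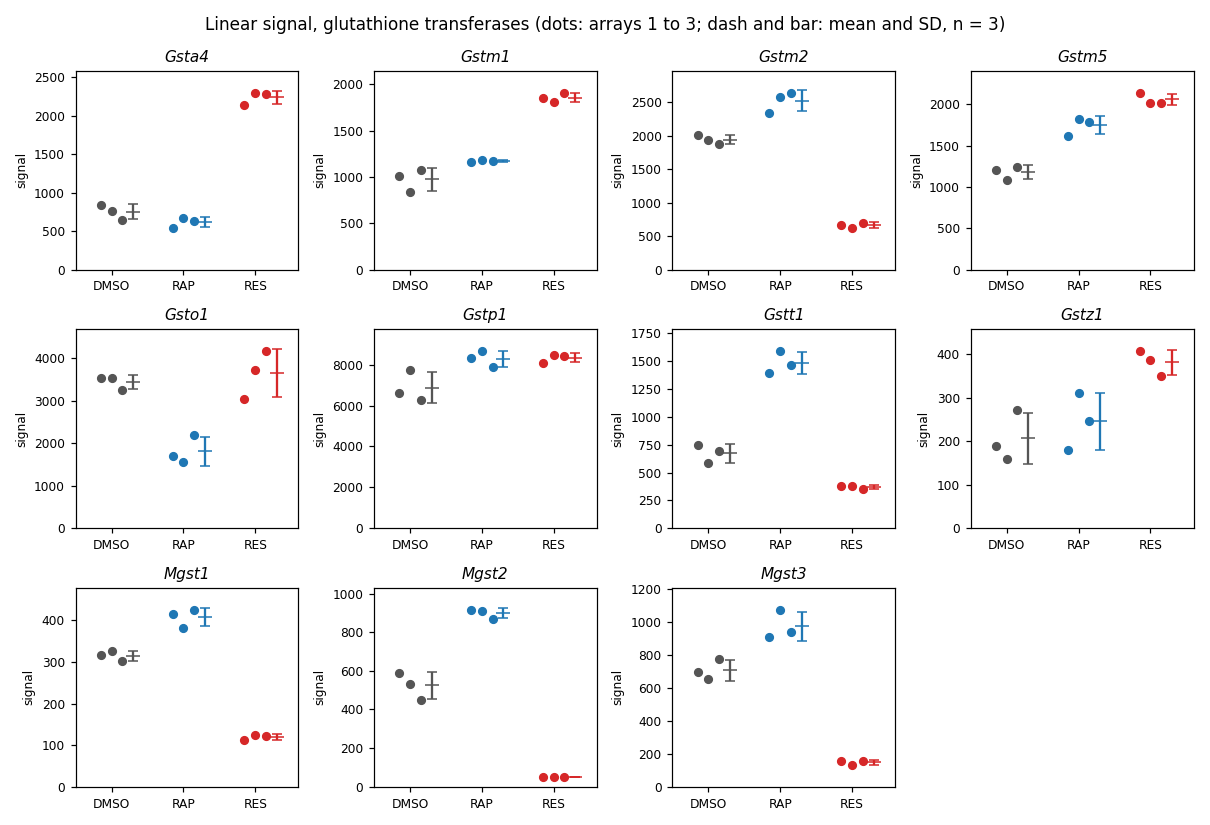
Linear signal (y axis, from 0) of 11 glutathione transferases on each array by group (x axis), with the mean and SD of 3 arrays. Mgst1, Mgst2, Mgst3, Gstm2 and Gstt1 are highest in RAP and lowest in RES, while Gsta4 and Gstm1 are highest in RES.

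The 10 members under the brightness filter were Gpx2, Gpx3, Gpx5, Gpx6, Gsta2, Gsta3, Gstk1, Gstm6, Gstt3 and Gstt4, and they were not tested. The filter lies between Gpx7 (mean log2 value 5.29) and Gpx3 (5.24). The 38 that passed include Gpx7, Gstm4 and Gstp3, for which 1 group mean was itself below the limit, so the counts given above describe the genes that passed and not the families.

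Around these members, 110 further genes of the same pathways were listed from general knowledge, with earlier results of these data known. Of these, 93 were tested. In RAP 26 rose and 20 fell, with a median log2 change of 0.0058, beside 20.4% and 15.2% of all genes tested. In RES against DMSO 34 were higher and 33 lower (median -0.01), beside 25.9% and 25.8% of all genes. Against RAP 33 were higher and 34 lower (median -0.02), beside 26.4% and 30.1%.

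In the list of cysteine supply 4 of 5 tested genes fell in RAP and none rose, where 15.2% of all genes fell and 20.4% rose. Cth, which makes cysteine from cystathionine, changed from 1472 ± 13.6 to 295 ± 20.6 (-2.26 ± 0.09, adjusted p = 2.49e-12). Slc7a11, the cystine carrier and a known target of NRF2 and ATF4, went from 87.4 ± 5.26 to 17.3 ± 19.4 (-1.78 ± 0.39, adjusted p = 0.00143). The RAP mean is under the filter limit of 22.2, and the change was -2.85, adjusted p = 0.00306 with a pseudocount of 1 and -0.92, adjusted p = 0.00112 with 64. In RES against DMSO it gave -0.80 ± 0.39 (adjusted p = 0.0954), which passed with a pseudocount of 64 (-0.49, adjusted p = 0.0426) and in a fit on the 6 arrays compared (adjusted p = 0.0259). Against RAP it was higher (0.99 ± 0.39, adjusted p = 0.0377), a call lost without the first or the second RAP array or any RES array (adjusted p = 0.0515 to 0.155). It was also lost with a pseudocount of 64 (0.43, adjusted p = 0.0699), after averaging of its probe sets (0.62, adjusted p = 0.185) and without the filter (adjusted p = 0.0622), and was 1.85, adjusted p = 0.0258 with a pseudocount of 1.

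Chac1, which breaks glutathione down, fell in RAP (-1.86 ± 0.09, adjusted p = 3.89e-11), as did Sesn2, a stress-induced sestrin (-1.83 ± 0.45, adjusted p = 0.00357, or -1.21, adjusted p = 0.00377 with a pseudocount of 64). Bach2, a transcription factor of the family that shares elements with NRF2, rose from 147 ± 24.7 to 411 ± 23.0 (1.40 ± 0.14, adjusted p = 4.36e-07), less so when its probe sets were averaged (0.82, adjusted p = 0.00198), and the selenium carrier Selenop rose too (1.28 ± 0.09, adjusted p = 6.87e-09). Bach1, a repressor of Hmox1, rose in RAP (0.47 ± 0.10, adjusted p = 0.000977), gave 0.04 ± 0.10 in RES against DMSO (adjusted p = 0.734) and was lower in RES than in RAP (-0.42 ± 0.10, adjusted p = 0.00105).

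In the list named NADPH supply, 7 of 9 tested genes were higher and 1 lower in RES against DMSO, where 25.9% of all genes were higher and 25.8% lower. The lower one was Taldo1 (-0.71 ± 0.07, adjusted p = 1.01e-07). G6pdx, also listed, had no probe set of its own and was not tested. These are counts of transcripts, and NADPH itself was not measured. Tkt, transketolase, went from 3851 ± 1124 to 11906 ± 317 (1.67 ± 0.15, adjusted p = 6.66e-08). In the list of glutaredoxins, thioredoxin-like proteins and methionine sulfoxide reductases 10 of 17 were lower and 4 higher, beside the same shares of all genes. Txnip, which binds and blocks thioredoxin, averaged 686 ± 79.2 in DMSO, 1398 ± 96.9 in RAP and 103 ± 30.8 in RES. It rose in RAP (1.01 ± 0.15, adjusted p = 5.25e-05) and was lower in RES than in DMSO (-2.59 ± 0.15, adjusted p = 2.59e-10) and than in RAP (-3.60 ± 0.15, adjusted p = 1.45e-12). Msrb2, a methionine sulfoxide reductase, was lower in RES than in DMSO (-1.91 ± 0.39, adjusted p = 0.000518) and than in RAP (-1.58 ± 0.39, adjusted p = 0.0021), with a resistant mean below the filter limit. With a pseudocount of 64 these were -0.87, adjusted p = 0.00102 and -0.68, adjusted p = 0.00572, and with 1 they were -3.87, adjusted p = 0.000696 and -3.44, adjusted p = 0.0015.

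Among genes of superoxide and peroxide disposal, 5 of 7 were higher and 2 lower in RES against DMSO, beside 25.9% and 25.8% of all genes. Sod3, the secreted superoxide dismutase, averaged 184 ± 53.7 in DMSO, 231 ± 11.7 in RAP and 8.30 ± 2.49 in RES, the last under the filter limit. It was lower in RES than in DMSO (-3.02 ± 0.24, adjusted p = 9.36e-09) and than in RAP (-3.35 ± 0.24, adjusted p = 1.19e-09), and a pseudocount of 64 gave -1.76, adjusted p = 5.01e-08 and -2.03, adjusted p = 4.12e-09. Park7 went from 2692 ± 236 in DMSO to 9486 ± 315 in RES (1.81 ± 0.09, adjusted p = 1.85e-11).

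Cat, catalase, rose in RAP (0.45 ± 0.12, adjusted p = 0.00794), a call lost with eBayes without trend (adjusted p = 0.0687), and was lower in RES than in DMSO (-0.59 ± 0.12, adjusted p = 0.000575) and than in RAP (-1.04 ± 0.12, adjusted p = 9.04e-07). Sod1, the cytosolic dismutase, gave 0.16 ± 0.09 in RAP (adjusted p = 0.218) and was higher in RES than in DMSO (0.40 ± 0.09, adjusted p = 0.00143, or 0.24, adjusted p = 0.00645 under quantile normalization). Its difference between RES and RAP (0.25 ± 0.09, adjusted p = 0.0313) was lost without the first or the third RAP array or the second or the third RES array (adjusted p = 0.107 to 0.135), under quantile normalization (0.10, adjusted p = 0.213), after averaging of its probe sets (0.04, adjusted p = 0.703) and with eBayes without trend (adjusted p = 0.103). Sod2, the mitochondrial dismutase, was higher in RES than in DMSO (0.84 ± 0.10, adjusted p = 1.85e-06) and than in RAP (0.98 ± 0.10, adjusted p = 1.53e-07). In RAP it gave -0.14 ± 0.10 (adjusted p = 0.299) and passed without the third DMSO array (-0.25, adjusted p = 0.0457).

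Quinone, carbonyl and haem detoxification genes were lower in 8 of 14 and higher in 3 in RES against DMSO, beside 25.8% and 25.9% of all genes. Nqo2, a relative of Nqo1, was lower (-1.60 ± 0.13, adjusted p = 1.95e-08), by less when its probe sets were averaged (-0.91, adjusted p = 7.93e-05). Of the NRF2 cofactors, relatives and adaptors, 7 of 9 were lower and 2 higher in RES against RAP, beside 30.1% and 26.4% of all genes. In RAP against DMSO 5 of them rose and none fell, beside 20.4% and 15.2%. In RES against DMSO 3 were higher and 2 lower, beside 25.9% and 25.8%. Of the small MAF genes, Maff was lower in RES against RAP (-1.61 ± 0.23, adjusted p = 9.03e-06), as was Mafk (-0.41 ± 0.15, adjusted p = 0.0223). Mafg was higher in RES against RAP (0.48 ± 0.11, adjusted p = 0.00075). In the same comparison Selenoh, which encodes a selenoprotein and stands in the list named selenoprotein synthesis, went from 1106 ± 157 to 5880.2 ± 229.8 (2.40 ± 0.09, adjusted p = 4.87e-13). Ahcy, which clears S-adenosylhomocysteine, went from 1628 ± 80.6 to 6936 ± 263 (2.08 ± 0.08, adjusted p = 2.31e-13).

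**Figure D5:**
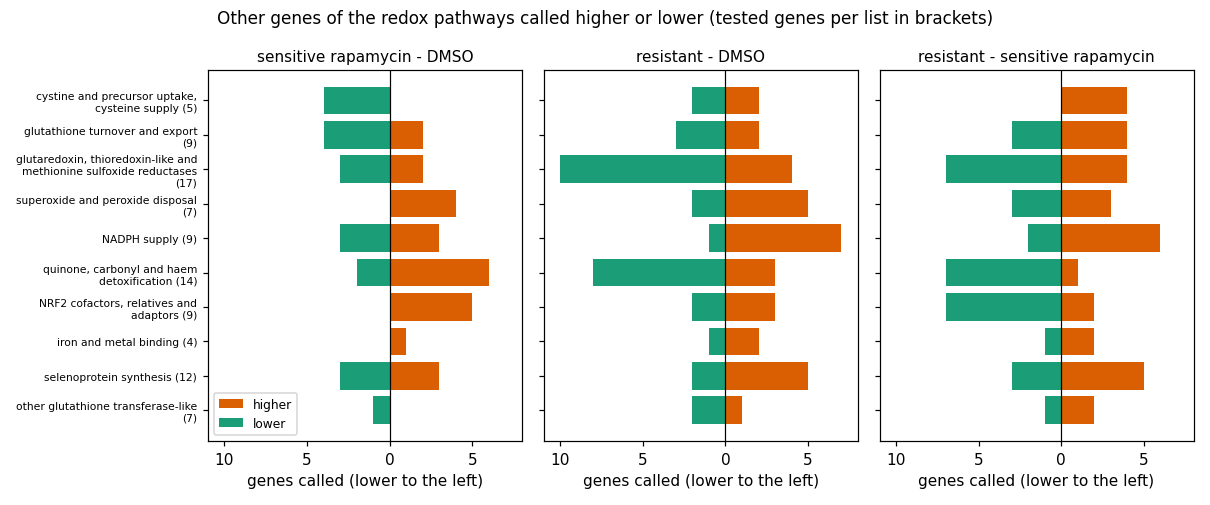
Number of genes called higher (bars to the right) and lower (bars to the left) in 10 lists of other redox genes, for the 3 comparisons, with the number tested in each list in brackets. Cysteine supply has 4 of 5 lower in RAP against DMSO and NADPH supply has 7 of 9 higher in RES against DMSO.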

How the data were processed

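The values are intensities, 1 linear signal for each probe set on each array, which the authors deposited. Per the submitters' processing notes GCOS 1.4, Affymetrix array software, was used, and the algorithm behind the signals is not given in the sources used here. The trimmed mean of every array, with 2% left out at either end, is 250. The number of arrays limits the precision, and no scan or hybridization batch was used here. Of 45101 probe sets 64 are controls, 34945 have 1 symbol in the platform annotation, 932 several and 9160 none. The gene IDs of 34741 are in the RefSeq gene table (GRCm38.p6), where no member had another symbol.

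Signals were kept as scaled by the authors and analysed as log2(signal + 16). Probe sets whose mean passed the 40th percentile (signal 22.2) were kept, the brightest one for each gene. They entered limma 3.58.1 (R 4.3.3; lmFit and eBayes with trend on all 9 arrays), after a check on simulated data. Adjusted p-values are limma's, over all genes of a comparison, and those of single probe sets come from a fit of all probe sets. Signals are given for every array for members called with a log2 change of at least 1, and for Nfe2l2 and Keap1. Whether groups overlapped was not counted over all genes, so a lack of overlap cannot be read as a trait of the members. Of the 110 further genes, the 6 largest called changes per comparison are named, with Slc7a11, Cat, Sod1, Sod2, Bach1 and Txnip. Members and lists were chosen with earlier results of these data known. Arrays of the same replicate number did not deviate together (correlations -0.0845 to 0.0151), so they were not paired. Alternatives changed the pseudocount, filter, scaling, trend, probe set rule or arrays used.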

Additional observations from a re-analysis of the deposited data

Results flagged for a closer look

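Probe sets annotated to several genes were kept out of every count above. All 5 that carry Prdx1, a cytosolic peroxiredoxin, are shared with the predicted gene Gm21399. In RES against DMSO 2 of them were above the control cells, with log2 changes of 0.35 (adjusted p = 0.00362) and 0.49 (adjusted p = 3.48e-05) in limma. The other 3 gave 0.05, 0.13 and 0.21 and were not called. In RAP the 5 lay between -0.16 and -0.08 and were not called. In RES against RAP 4 of the 5 were called higher, and all 5 lay between 0.16 and 0.66.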

How the results depend on the processing

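Of the member calls, 15 of 21 in RAP against DMSO, 19 of 25 in RES against DMSO and 20 of 25 in RES against RAP held under every alternative that tested them. Of the members not called, 15 of 17, 6 of 13 and 8 of 13 in the same order stayed uncalled under every alternative. The numbers of members and of further genes called higher and lower stayed within 1.5 times of those reported. Leaving out each array in turn gave 8 to 10 rises and 9 to 12 falls of members in RAP, 9 to 13 and 12 to 15 in RES against DMSO, and 11 to 14 and 9 to 13 in RES against RAP. Averaging probe sets turned the sign of Gsr (0.29, adjusted p = 0.00789) and Txn1 (-0.10, adjusted p = 0.562) in RES against DMSO, where their probe sets differ. A further 51 of 2130 values changed sign without being called in either setting. With a replicate block 10 members rose and 11 fell in RAP, and 1 member call changed, that of Hmox1 in RES against RAP (adjusted p = 0.0327). No array correlated best with its own number in both other groups (0 of 9). The longer element was in a promoter of 3.45% of genes, since it asks for 1 more letter. Signal over background limits the changes of dim genes such as Gpx7, Gstm4 and Gstp3.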

Other observations

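Spread among the arrays differed between groups. The median SD of log2 values over the 38 tested members was 0.181 in DMSO, 0.115 in RAP and 0.0785 in RES, beside 0.181, 0.149 and 0.12 over all genes. On the third DMSO array, 15 of the 19 brighter members were at the lowest of their 3 DMSO values, with a median of -0.12 on the log2 scale against the mean of the other DMSO arrays. Among the 19 dimmer members, 5 were at the lowest and 8 at the highest there. The same count was not made over all genes, so a trait of the members cannot be read from it.

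The probe set shared by Gsta1, Gsta2 and the predicted gene Gm3776 was dim. Its signals averaged 64.2 ± 8.86 in DMSO, 35.6 ± 11.3 in RAP and 20.1 ± 1.44 in RES (SD, n = 3). It was lower in RES than in DMSO (-1.15, adjusted p = 0.00825 in limma). Gsta4, which lies next to Gsta1 on chromosome 9, was higher there (1.56 ± 0.10, adjusted p = 5.03e-10).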
